A study of Drosophila melanogaster with 7 samples.

Results

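The regions described here are the 258 peaks of serine 5 phosphorylated RNA polymerase II (Ser5P) that overlapped a peak of H3K27me3 and no peak of H3K4me3 in Drosophila wing imaginal discs. They were chosen by the measured peak positions of those 3 lists, with an overlap of 1 bp or more counting as shared, and made up 6.91% of the 3732 Ser5P peaks. The other Ser5P peaks comprised 191 in H3K27me3 that did hold H3K4me3, 1315 with neither mark, and 1968 with H3K4me3 outside H3K27me3. Wing discs are pouches of larval epithelium from which the adult wing develops. They were dissected whole at the third larval instar from flies on standard medium, with no genotype or treatment named, and were studied by chromatin immunoprecipitation and sequencing (ChIP-seq). Each of the 6 targets, ASH2, H3K4me3, H3K27me3, H3K36me3, Ser2P (polymerase phosphorylated at serine 2) and Ser5P, had 1 library and 1 deposited list of peak positions on the dm3 genome build, and a library of input DNA was not analysed here. The label of the ASH2 library gives the catalogue number of an antibody sold against the HA tag without naming a tagged strain, so ASH2 values rest on that label.

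Ser5P is placed on the polymerase as it initiates and is typical of promoters and of polymerase paused just downstream of them, whereas Ser2P is added as polymerase is released into elongation. H3K36me3 follows elongating polymerase through gene bodies, and H3K4me3, made by complexes that contain ASH2, marks the promoters of active genes. H3K27me3 is laid down by the Polycomb repressive complex PRC2 over silenced developmental genes, often in long blocks. A Ser5P peak in H3K27me3 without H3K4me3 thus meets a listed peak of the repressive mark and none of the mark of active promoters. The overlap can be as short as 1 bp, and promoter positions were not used. Discs hold cells of many fates, and polymerase and H3K27me3 on the same chromatin cannot be told apart here from polymerase in some cells and the mark in others.

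No target had a replicate library. The tests below compare peaks of these lists by Fisher's exact test, and the range over the 5 chromosome arms gives the spread within a list. Neighbouring peaks share their chromatin and are not independent, which makes these p values too small. Read counts are missing from the lists, so depth is unknown, and a mark may be present where its list has no peak. The annotation at hand follows another genome release than the lists, so positions are given without gene names.

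The 258 regions were narrower than the Ser5P peaks in H3K27me3 that held H3K4me3. Their median width was 726 bp (quartiles 515.5 to 1023.5 bp, arm medians 691 to 830.5 bp), against 1200 bp (823 to 1840 bp, arm medians 1045 to 1633.5 bp) for the 191 peaks with H3K4me3 and 519 bp for the 1315 peaks with neither mark. The arm medians of the first 2 groups did not overlap. These widths are given without a test, because a wide peak meets another list more often and width therefore enters the choice of the groups. By width, 60 of the 258 were under 500 bp, 127 were from 500 to under 1000 bp, 40 from 1000 to under 1500 bp and 31 were 1500 bp or wider.

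H3K27me3 covered a median of 56.0% of each region (quartiles 28.2 to 86.7%), against 41.2% (15.4 to 70.4%) of the peaks with H3K4me3. That order was not general: the median was lower for the 258 on 2L (67.5 against 81.1%), nearly equal on 3L (68.8 against 68.9%) and higher on 2R, 3R and X, and off 3R and X together it was 70.3 against 69.7%. H3K27me3 covered 47 regions entirely (18.2%, against 11 or 5.76% of those with H3K4me3; 23.0 against 12.8% off 3R and X) and 26 over less than 10% of their width. A narrower Ser5P peak is more easily covered entirely, and the regions were the narrower group, so no conclusion is drawn from the shares with full cover. The H3K27me3 peaks met by the 258 regions were 483 bp wide at the median. For peaks with H3K4me3 the value was 445 bp. By arm, the regions met narrower ones on 2L (574 against 990 bp), 2R (552 against 829 bp) and 3L (568 against 946 bp). The difference was small on X (312 against 332 bp) and reversed on 3R (396 against 323 bp). The median of all 22620 H3K27me3 peaks was 337 bp. A wider peak is met more often, so no conclusion is drawn from that lower value. At the margin of the rule, the shortest overlaps with H3K27me3 were 1, 1 and 2 bp, and the nearest Ser5P peaks left outside lay 1, 9 and 16 bp from an H3K27me3 peak. On the other side of the rule, the shortest gaps to an H3K4me3 peak were 52, 53 and 86 bp, and the shortest H3K4me3 overlaps among the peaks left to the other group were 20, 28 and 44 bp.

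Joining H3K27me3 peaks across gaps of up to 5000 bp gave domains, and whether the 258 regions lay in longer or shorter ones than the peaks with H3K4me3 differed by arm. The pooled median domain length was 39527 bp (quartiles 11335.5 to 82076 bp, arm medians 10015.5 to 67614 bp), against 21198 bp (4695.5 to 68749 bp, arm medians 5404 to 83202.5 bp). The 258 lay in longer domains only on 3R (47242.5 against 9624 bp) and X (10015.5 against 5404 bp), the arms where the H3K27me3 list is denser. On 2L (67614 against 83202.5 bp), 2R (34180 against 45725 bp) and 3L (33101 against 73193 bp) they lay in shorter ones. Domains over 20000 bp held 170 of the 258 regions (65.9%) and 98 of the 191 peaks with H3K4me3 (51.3%), but off 3R and X the shares were 73.6 and 83.3%. Per length of domain, the regions stood at 8.39 per Mb in domains over 20000 bp and 7.87 per Mb in shorter ones, against 4.84 and 8.31 per Mb for peaks with H3K4me3. Off 3R and X the densities were 10.9 and 8.24 per Mb for the regions and 6.52 and 2.75 per Mb for peaks with H3K4me3, so the lower density of the second group in long domains was not seen there. Domain length depended strongly on the joining rule, with medians for the 258 regions of 4463.5 bp at gaps up to 1000 bp and 68947 bp at gaps up to 10000 bp.

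Most of the 258 regions lay kilobases inside their domains. Pooled over arms, their midpoints were a median of 8765 bp from the nearer edge (quartiles 1075.9 to 22097 bp, arm medians 1733 to 13712 bp), against 2340.5 bp (-27 to 18070 bp, arm medians 139.75 to 29109.5 bp) for peaks with H3K4me3, negative values lying outside. This contrast came from 3R (9126.5 against 203.5 bp) and X (1733 against 139.75 bp). It ran the other way on 2L (13712 against 21581 bp), 2R (8910 against 13593.5 bp) and 3L (6945 against 29109.5 bp), where the regions lay nearer to a border than the peaks with H3K4me3. Of the 258, 34 midpoints fell outside the domain (13.2%), against 51 of 191 (26.7%), and 61 (23.6%) reached past a domain edge, against 90 (47.1%). Off 3R and X the midpoint lay outside for 8.78 against 10.3% and the peak reached past an edge for 15.5 against 15.4%. With gaps up to 1000 bp the median distance of the 258 was 312.5 bp, so this placement too is a property of domains as joined here.

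**Figure D1:**
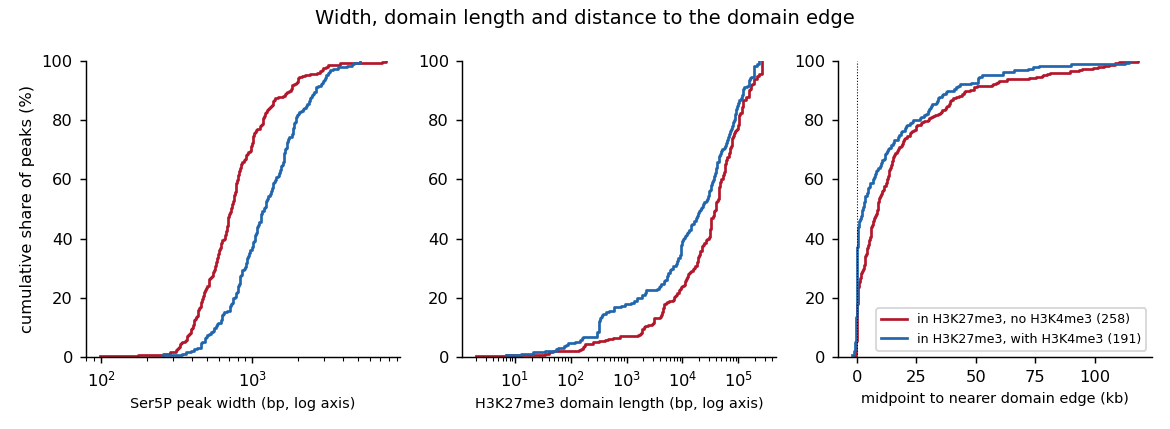
Cumulative share of peaks by Ser5P peak width, by length of the H3K27me3 domain (both on log axes) and by distance of the midpoint to the nearer domain edge, for Ser5P peaks in H3K27me3 without H3K4me3 (red, 258) and with H3K4me3 (blue, 191). The red curve lies at smaller widths (median 726 against 1200 bp), an order found on 5 of 5 arms. It also lies at longer domains and larger distances (median 8765 against 2340.5 bp) with all arms pooled, an order that is reversed on 2L, 2R and 3L.

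Most regions were several kilobases from H3K4me3 and farther from H3K36me3. The distance to H3K4me3 is tied to the rule and is given without a test. The nearest H3K4me3 peak was a median of 12513.5 bp away (quartiles 4109.75 to 26597 bp, arm medians 9788 to 17738.5 bp), against 5516 bp for the peaks with neither mark. It lay under 1000 bp away for 22 regions, from 1000 to under 5000 bp for 56, from 5000 to under 20000 bp for 95 and 20000 bp or more for 85. An H3K4me3 peak was present elsewhere in the same domain, as joined across gaps of up to 5000 bp, for 134 of the 258 regions (51.9%). A longer domain has more room for such a peak, so no conclusion is drawn from this share. The nearest H3K36me3 peak was a median of 27535.5 bp away (arm medians 24334 to 56639 bp), against 3483 bp (arm medians 0 to 51242.5 bp) for the peaks with H3K4me3 and 7335 bp for those with neither mark. The difference from the peaks with H3K4me3 was largest on 3R (25178.5 against 0 bp) and X (29852.5 against 0 bp). The regions were also farther from H3K36me3 on 2L (56639 against 51242.5 bp) and 2R (26501.5 against 22656 bp), and nearer on 3L (24334 against 39466 bp). Off 3R and X together the medians were 27237.5 and 36078 bp, against 7025.5 bp with neither mark.

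ASH2, the trithorax group subunit of H3K4 methylating complexes, was present at most of the 258 regions but at fewer than where H3K4me3 was also held. It overlapped 199 of 258 (77.1%, 95% exact Clopper-Pearson interval as for all shares here 71.5 to 82.1, arms 69.6 to 82.8%), against 179 of 191 peaks with H3K4me3 (93.7%, 89.3 to 96.7, arms 80.0 to 98.3%) and 87.7% of all 3732 Ser5P peaks. The difference was -16.6 percentage points (95% Newcombe interval -22.7 to -10.2, adjusted Fisher's exact p = 1.78e-06), and the share was lower on 5 of 5 arms (-28.7 to -0.930 points). Against the Ser5P peaks with neither mark, of which 1031 of 1315 (78.4%) held ASH2, the difference was -1.27 points (-7.17 to 3.97, adjusted exact p = 0.680), lower on 3 arms and higher on 2. Outside H3K27me3, 1863 of 1968 peaks with H3K4me3 held ASH2 (94.7%). All p values of the shares are two-sided and adjusted over 6 comparisons by the Benjamini-Hochberg method. When ASH2 had to cover 50% of the Ser5P peak, the difference from the peaks with H3K4me3 no longer passed (48.8 against 58.6%, adjusted exact p = 0.0671). The ASH2 peaks met were narrower at the 258 regions (median 497 bp, arm medians 372.5 to 595 bp) than at peaks with H3K4me3 (770 bp, arm medians 700 to 877 bp), and their midpoints lay a median of 154 bp from the Ser5P midpoint, against 259.5 bp. Peaks with neither mark were close to the regions in both, with ASH2 peaks of 529 bp at 164 bp. The ASH2 width was lower at the regions than at peaks with H3K4me3 on 5 of 5 arms, the offset on 3 of 5.

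Ser2P, the elongating form, was present at 105 of the 258 regions (40.7%, 34.6 to 47.0, arms 34.9 to 47.8%), against 113 of 191 peaks with H3K4me3 (59.2%, 51.8 to 66.2, arms 48.0 to 67.7%) and 43.5% of all Ser5P peaks. Of the 1968 peaks with H3K4me3 outside H3K27me3, 949 held Ser2P (48.2%), so the share was highest in the group with both marks. The difference of the regions from that group was -18.5 points (-27.4 to -9.12, adjusted Fisher's exact p = 0.000195), with the lower share on 5 of 5 arms. It lost the threshold when H3K27me3 had to cover 50% of the Ser5P peak (41.5 against 57.0%, adjusted exact p = 0.0523) and when the H3K27me3 list of each arm was cut to its first 140 entries per Mb (40.3 against 52.5%, adjusted exact p = 0.0740). Against the peaks with neither mark (457 of 1315, 34.8%) the difference was 5.94 points (-0.431 to 12.5, adjusted exact p = 0.0907), and among peaks of 500 to 1500 bp it changed sign (37.1 against 40.4%). Ser2P went with width: 18 of 60 regions under 500 bp held it (30.0%), 42 of 127 from 500 to under 1000 bp (33.1%), 20 of 40 from 1000 to under 1500 bp (50%) and 25 of 31 of 1500 bp or wider (80.6%). The share rose likewise at peaks with H3K4me3 (14.3, 50.9, 57.4 and 75.3%) and with neither mark (21.7, 35.0, 63.2 and 87.1%). Against peaks with H3K4me3, the regions were thus lower from 500 to under 1500 bp only. They were higher at 1500 bp or wider and under 500 bp, where 2 of 14 peaks with H3K4me3 held Ser2P. At the 105 regions with Ser2P it covered a median of 90.4% of the Ser5P peak, and its midpoint lay a median of 59 bp from that of Ser5P, against 82.1% and 122.5 bp at the 113 peaks with H3K4me3 and 88.4% and 47 bp at the 457 with neither mark. The Ser2P and Ser5P peaks of these 105 regions thus largely coincided, as they did with neither mark.

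H3K36me3, the mark of transcribed gene bodies, was listed at almost none of the regions. It overlapped 2 of the 258 regions (0.775%, 0.0940 to 2.77), against 64 of 191 peaks with H3K4me3 (33.5%, 26.9 to 40.7), 119 of 1315 peaks with neither mark (9.05%) and 23.8% of all Ser5P peaks. Outside H3K27me3, 703 of 1968 peaks with H3K4me3 held H3K36me3 (35.7%). The differences were -32.7 points (-39.7 to -26.1, adjusted Fisher's exact p = 7.26e-24) from the 191 peaks with H3K4me3 and -8.27 points (-10.04 to -5.81, adjusted exact p = 3.67e-07) from those with neither mark. The comparison with neither mark went the same way on 5 of 5 arms (-11.1 to -5.09 points). The comparison with H3K4me3 rested on 3R and X: there 62 of 113 peaks with H3K4me3 held H3K36me3 (54.9%), against 2 of 78 on the other arms (2.56%), where 0 of 148 of the regions did, which allows a share of up to 2.03% (3 of 148; the exact interval reaches 2.46%). Without 3R and X that difference was -2.56 points (adjusted exact p = 0.177), while the difference from the peaks with neither mark was -10.1 points (adjusted exact p = 7.24e-06). The H3K27me3 list is denser on 3R and X, at 231 and 243 entries per Mb against 150.5 to 165 on the other arms. With that list cut to its first 140 entries per Mb on every arm, 0 of 206 regions and 4.04% of 99 peaks with H3K4me3 held H3K36me3 (adjusted exact p = 0.0213). The entries were kept in the order listed, and what that order reflects was not examined, so the cut may not thin the list evenly.

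**Figure D2:**
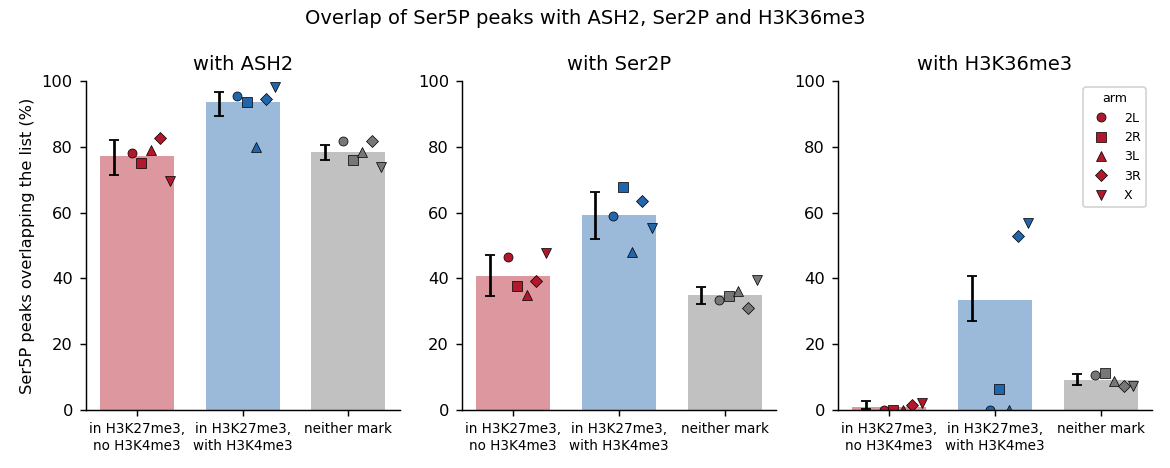
Share of Ser5P peaks that overlapped ASH2, Ser2P or H3K36me3 (%), for peaks in H3K27me3 without H3K4me3 (red, 258), in H3K27me3 with H3K4me3 (blue, 191) and with neither mark (grey, 1315). Bars are all arms with exact 95% intervals, and symbols are the 5 arms. In the H3K36me3 panel the blue points for 3R and X stand at 52.7 and 56.9% and those for the other 3 arms at 6.45% or below.

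Position in the domain was tied to arm, so the shares by zone do not stand apart from the difference between arms. Among peaks with H3K4me3, the H3K36me3 share was 31 of 51 where the midpoint lay outside the domain (60.8%), 23 of 37 within the first 1000 bp (62.2%), 6 of 21 from 1000 to under 5000 bp (28.6%), 4 of 37 from 5000 to under 20000 bp (10.8%) and 0 of 45 at 20000 bp or more, which allows up to 6.67% (3 of 45; the exact interval reaches 7.87%). Of these 64 peaks with H3K36me3, 62 were on 3R and X, where the peaks with H3K4me3 sat at the edge (medians 203.5 and 139.75 bp). Within 3R and X the counts by zone were 29 of 43, 23 of 33, 6 of 15, 4 of 14 and 0 of 8, and on the other arms 2 of 8, 0 of 4, 0 of 6, 0 of 23 and 0 of 37. Among the 258 regions the counts in the same zones were 0 of 34, 1 of 30, 0 of 37, 1 of 89 and 0 of 68. At 20000 bp or more from an edge, H3K36me3 was listed at neither kind of Ser5P peak. A further 177 of the 1315 peaks with neither mark lay in the gaps between H3K27me3 peaks of a domain, and 0 of 177 held H3K36me3 (up to 1.69%, 3 of 177; the exact interval reaches 2.06%), whereas 119 of the 1138 outside domains did (10.5%). ASH2 at the 258 regions ranged over these zones from 66.7 to 84.3% and Ser2P from 23.5 to 59.5%, with overlapping intervals except for Ser2P outside the domain (10.7 to 41.2%) against 1000 to under 5000 bp (42.1 to 75.2%).

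**Figure D3:**
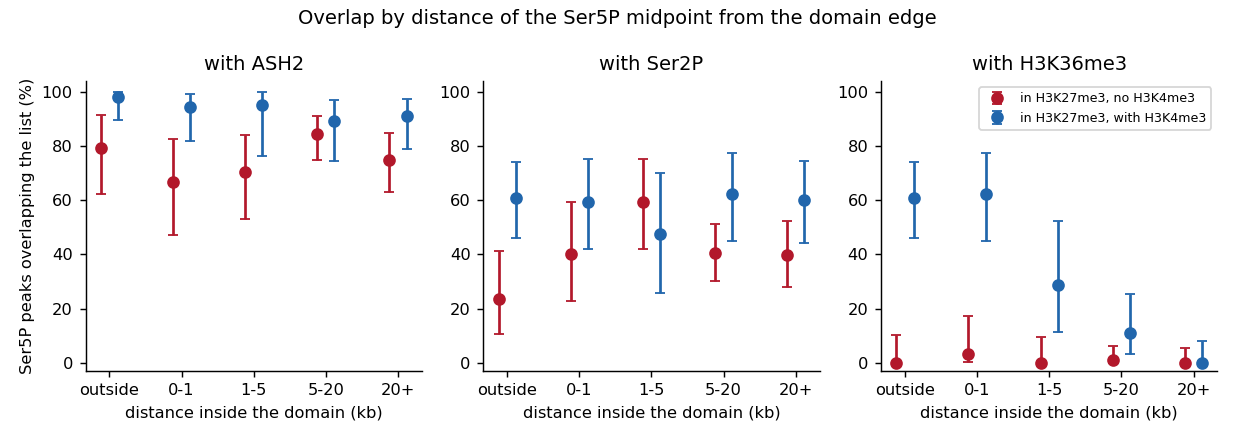
Share of Ser5P peaks with ASH2, Ser2P or H3K36me3 (%) by the distance of the midpoint inside its H3K27me3 domain (kb), for peaks without H3K4me3 (red) and with it (blue), with exact 95% intervals. In the H3K36me3 panel the blue share, nearly all of it from 3R and X, is 60.8% outside the domain and 0 at 20 kb or more, and the red share is at most 3.33% in every zone.

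The marks were also followed by distance from the Ser5P midpoint. At the Ser5P midpoint 58.9% of the 258 regions lay inside an H3K27me3 peak, at 500 bp to either side 33.5%, at 1000 bp 39.7% and at 10000 bp 29.8%, against 49.2, 35.9, 26.4 and 28.5% for peaks with H3K4me3. Both groups were chosen for meeting H3K27me3, so its high share at the midpoint follows from the rule. At the regions it was 41.7% at 1250 bp, above the value at 500 bp. The share inside an ASH2 peak was 50.8% at the midpoint, 22.7% at 500 bp and 16.7% at 2000 bp, against 61.3, 42.9 and 19.9% with H3K4me3 and 56.2, 29.8 and 21.6% with neither mark. For Ser2P it was 38.4% at the midpoint, 15.5% at 500 bp and 7.75% at 2000 bp, against 50.8, 31.2 and 13.6% with H3K4me3 and 32.2, 11.8 and 9.96% with neither mark. At 500 bp both marks had lower shares at the 258 regions than at the wider peaks with H3K4me3. H3K36me3 was at 0.775% at the midpoint and at 1000 bp, 2.91% at 5000 bp and 5.62% at 10000 bp, against 31.4, 16.0, 13.9 and 10.99% with H3K4me3. These profiles pool the arms, and 62 of the 64 peaks with H3K4me3 that overlapped H3K36me3 were on 3R and X. Off 3R and X the median gap to H3K36me3 was 27237.5 bp for the regions and 36078 bp with H3K4me3, so the pooled order need not hold there.

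**Figure D4:**
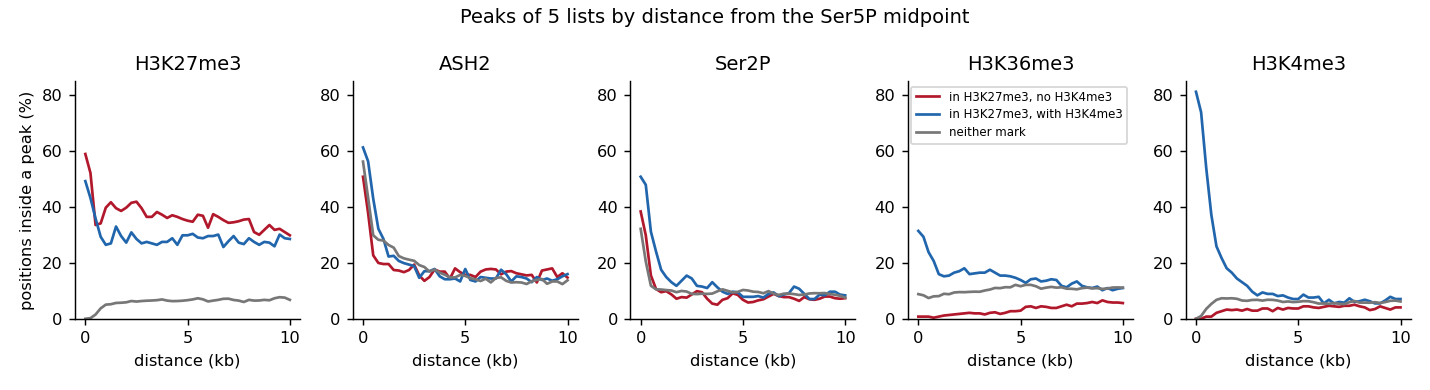
Percent of positions inside a peak of H3K27me3, ASH2, Ser2P, H3K36me3 or H3K4me3 by distance from the Ser5P midpoint (kb, both sides together), for peaks in H3K27me3 without H3K4me3 (red), with H3K4me3 (blue) and with neither mark (grey). With all arms pooled, the red H3K36me3 curve is the lowest of the 3 at every distance plotted, from 0.775% at the midpoint to 5.62% at 10 kb. Nearly all blue peaks that overlap H3K36me3 are on 3R and X, and the curves were not drawn by arm.

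The commonest combination among the 258 regions was ASH2 without Ser2P or H3K36me3, with 127 regions (49.2%), against 65 of 191 peaks with H3K4me3 (34.0%) and 700 of 1315 with neither mark (53.2%). It was also found at 848 of the 1968 peaks with H3K4me3 outside H3K27me3 (43.1%), and was thus the commonest in every group. ASH2 with Ser2P and no H3K36me3 was found at 71 (27.5%, against 53 or 27.7% with H3K4me3 and 261 or 19.8% with neither mark), and Ser2P alone at 32 (12.4%, against 7 or 3.66% and 95 or 7.22%). With H3K4me3 outside H3K27me3 these shares were 19.5 and 0.762%. None of the 3 was present at 26 regions (10.1%), against 2 with H3K4me3 (1.05%) and 140 with neither mark (10.6%), a share close to that of the regions. Outside H3K27me3, 19 of the peaks with H3K4me3 (0.965%) held none of the 3. Ser2P was present at 72 of the 199 regions with ASH2 (36.2%, 29.5 to 43.3) and 33 of the 59 without it (55.9%, 42.4 to 68.8). The same order was seen at peaks with H3K4me3 (103 of 179, 57.5%, with ASH2 and 10 of 12, 83.3%, without) and with neither mark (318 of 1031, 30.8%, and 139 of 284, 48.9%). These splits were made after seeing the data and were not tested. The regions with and without ASH2 had median widths of 715 and 749 bp.

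The regions were spread over 178 of the 3800 domains. A domain with a member held 1 in 142 cases, 2 in 14, 3 in 11, 4 in 6, 5 in 4 and 11 in 1 case. Of the 389 domains over 20000 bp, 99 held at least 1 (25.4%), against 79 of the 3411 shorter ones (2.32%). Long domains have more length to hold one, and per length the pooled densities were close (8.39 and 7.87 per Mb). Of the 178 domains, 40 also held a Ser5P peak with H3K4me3. Another Ser5P peak of any kind lay within 5000 bp of 130 regions (50.4%), against 102 of the 191 peaks with H3K4me3 (53.4%). By arm, the regions numbered 41 on 2L, 64 on 2R, 43 on 3L, 64 on 3R and 46 on X, from 5.89 to 7.95% of the Ser5P peaks of an arm.

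The domain with 11 of these regions was the longest of all 3800, on 3R from 6253738 to 6521660 (267923 bp), of which H3K27me3 peaks covered 46.2%. It held 12 Ser5P peaks in all, none of them with both H3K27me3 and H3K4me3, and 0 H3K36me3 peaks. All but the last of the 11 lay in a stretch from chr3R:6403158-6403584 to chr3R:6431898-6432417, and the last, chr3R:6512275-6513279, was 71817 bp from any other Ser5P peak. That last region met H3K27me3 over only 55 bp (5.47% of its width) and lay 8883.5 bp from the domain edge. The widest, chr3R:6412080-6414092 (2013 bp), was covered over 82.4% by ASH2 and over 78.6% by Ser2P and lay 108574.5 bp inside the domain. In the same stretch, chr3R:6419602-6421022 (1421 bp) was covered entirely by ASH2 and held no Ser2P. By contrast chr3R:6422174-6422609 (436 bp) lay wholly in H3K27me3, with Ser2P over 90.4% and no ASH2. The region nearest to the domain's centre, chr3R:6403158-6403584 (427 bp, 118289.5 bp from the edge), lay wholly in H3K27me3 with neither ASH2 nor Ser2P. The gap to an H3K4me3 peak was 3396 bp at the last region of the stretch and 32229 bp at the first. In all, 9 of the 11 held ASH2 and 5 held Ser2P.

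**Figure D5:**
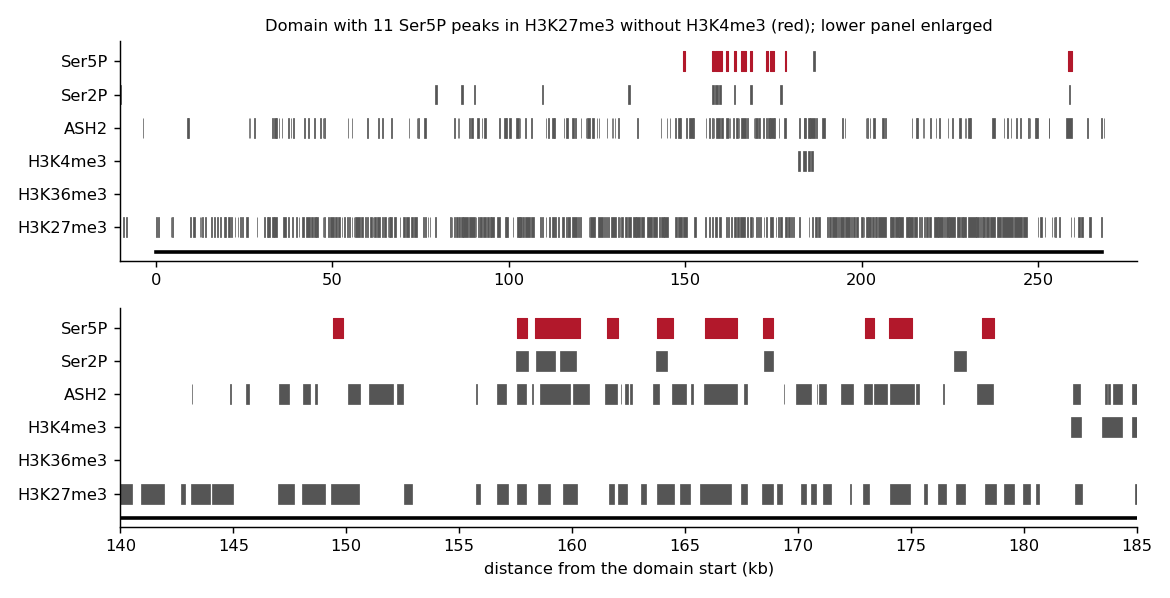
Peaks of the 6 lists over the longest H3K27me3 domain, on 3R, by distance from the domain start (kb), with the domain as a black line and the 11 Ser5P peaks in H3K27me3 without H3K4me3 in red. All but the last of the 11 sit close together past the middle, beside a small group of 4 H3K4me3 peaks, and the H3K36me3 row is empty.

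A pair of domains on 2R held 5 regions each. In the one from 7350176 to 7465625 (115450 bp), the 5 were 371 to 1263 bp wide, 3 held ASH2 over 21.2 to 28.3% of their width and 2 held Ser2P. In that from 8830850 to 8935816 (104967 bp), all 5 held ASH2, over 50.3 to 92.6% of their width, and 2 held Ser2P. ASH2 thus covered little of the Ser5P peaks in one domain and most of them in the other.

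Of the 5 widest regions, 4 carried Ser2P and 3 held no ASH2. The widest, chrX:3057449-3065101 (7653 bp), held Ser2P over 96.0% of its width and no ASH2, and its nearest H3K36me3 peak was 214452 bp away. The second, chr3R:10639898-10647106 (7209 bp), held Ser2P over 51.2% and ASH2 over 6.23%, with its midpoint outside the domain (-1066.5 bp). The third, chr2L:11436451-11440235 (3785 bp), lay wholly in H3K27me3 in a domain of 190949 bp and wholly in Ser2P, without ASH2. A different state was seen at the fourth, chr2L:21833389-21836572 (3184 bp), which lay wholly in H3K27me3 with ASH2 over 11.3% and no Ser2P. The fifth, chr3L:5638817-5641961 (3145 bp), was covered over 80.6% by H3K27me3 and entirely by Ser2P, without ASH2. Of all 31 regions of 1500 bp or wider, 22 held ASH2 (71.0%), against 67 of 73 such peaks with H3K4me3 (91.8%) and 49 of 85 with neither mark (57.6%).

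The 2 regions with H3K36me3 were both wide and both held Ser2P. That at chr3R:5331981-5333192 (1212 bp) lay under H3K36me3 over 92.7% of its width, entirely under Ser2P and over 25.7% under H3K27me3, with H3K4me3 737 bp away and no ASH2. That at chrX:11802535-11805410 (2876 bp) had 92.1% of its width in H3K36me3, 90.5% in Ser2P, 69.7% in H3K27me3 and 5.08% in ASH2. For comparison, the widest peak with H3K4me3, chr2R:15998577-16003697 (5121 bp), was covered over 69.0% by H3K27me3 and 59.9% by Ser2P and lay 125934 bp from H3K36me3. The next widest, chr3R:11156455-11161168 (4714 bp), met H3K27me3 over only 21 bp, and 92.4% of its width lay in H3K36me3.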

How the data were processed

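The 6 deposited peak lists, of 1 ChIP-seq library each, were used, on dm3 per the submitters' processing notes. Columns are chromosome, start and end, per the deposited readme; no peak height is given, and the sources used here do not give the aligner, peak caller, threshold or role of the input. Depth is unknown. Starts were raised by 1 bp for printing. Entries with equal start and end (306 for ASH2, 108 for H3K27me3, 2 for H3K4me3, 1 for H3K36me3) were kept as 1 bp.

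Overlaps, gaps, domains and distances were computed in Python 3.11.15 with pandas 2.3.3 and numpy 2.4.6. Shares were compared by two-sided Fisher's exact tests (scipy 1.17.1), adjusted over 6 comparisons at a threshold of 0.05. Intervals cover the counting of peaks only. The overlap and test steps were tested on simulated data. Alternatives are given in the closing section; those on 3R, X and list density were added after seeing the data. The members and lists were chosen with earlier results of these data known. Named positions followed a rule: the widest members, those in the longest or fullest domains, those farthest from an edge, those at the margins of the rule and the widest peaks with H3K4me3; the regions with H3K36me3 were chosen after their values were seen. No sequence is shown because no dm3 genome was used here.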

Additional observations from a re-analysis of the deposited data

How the results depend on the processing

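Depth, absent from the lists, limits every share: a weak mark can fall under a caller's threshold. No paired analysis was possible because each target had 1 library. Of 114 recomputed values, 91 kept their direction and their side of the threshold, moved by less than their interval or, for 5 counts of regions, lay from 172 to 258. Against peaks with H3K4me3, the ASH2 difference was -9.80 points (adjusted exact p = 0.0671) when the mark had to cover 50% of the Ser5P peak. The Ser2P difference was -15.4 points (adjusted exact p = 0.0523) with 50% of the peak in H3K27me3 and -12.2 points (0.0740) with the first 140 H3K27me3 entries per Mb kept. The H3K36me3 difference was -2.56 points (adjusted exact p = 0.177) without 3R and X. Against peaks with neither mark, the Ser2P difference was 7.27 points (adjusted exact p = 0.0451) with H3K4me3 within 500 bp counted as held, and it reversed to -3.23 points (0.504) for peaks of 500 to 1500 bp. The ASH2 difference from them reversed to 0.776 points (adjusted exact p = 0.921) with 1 peak per domain or cluster. The cause was not tested.

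The number of regions was 172 with the wider 50% of H3K27me3 peaks and 206 with 140 H3K27me3 entries per Mb kept. It was 142 with 50% of the peak in H3K27me3 and 148 without 3R and X. These falls follow by construction from smaller lists or a stricter rule. The first 50% of Ser5P entries held 98 of the 258 regions, against 124 of the 191 peaks with H3K4me3. It also held 531 of the 1315 peaks with neither mark. The regions, like the peaks with neither mark, thus stood more often among the later entries than the peaks with H3K4me3 did. Ser2P was present at 51.0% of these 98 regions, against 40.7% of all 258. The share was likewise higher in the first 50% for peaks with H3K4me3 (66.9 against 59.2%) and with neither mark (40.5 against 34.8%). What the order of the entries reflects was not tested. With 50% in H3K27me3 the median domain length was 50503.5 bp and the edge distance 14047.5 bp. In the first 50% of Ser5P entries the medians were 808 bp for width, 29025.5 bp for domain length, 5943.75 bp for edge distance and 15522.5 bp for the gap to H3K4me3. Domain length was 31916.5 bp with the wider 50% of H3K27me3 peaks. With 1 peak per domain it was 26709 bp, with an edge distance of 5569.25 bp. Gaps up to 1000 bp gave 4463.5 and 312.5 bp, and gaps up to 10000 bp gave 68947 and 15939 bp, by construction of shorter or longer domains.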
